A study of Mus musculus with 8 samples.

Results

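The mitochondrial ribosomal protein genes are the nuclear genes named Mrpl for the large subunit and Mrps for the small subunit of the mitochondrial ribosome. They were taken as every row of the expression table whose symbol is Mrpl or Mrps, a number and at most one letter a, b or c. The rule found 76 genes among the 22520 protein-coding genes of the table, 47 with Mrpl and 29 with Mrps symbols. Symbols and place differ in a few cases: the proteins of Mrps18a and Mrps30 sit in the large subunit, and that of Mrps36 is no ribosomal protein. The rule used symbols only and no measured value, though the family was chosen with earlier results of these data known. The question was whether deletion of the endocytic receptor LRP1 in endothelial cells (ECs) came with a change in the mRNA of these genes. mRNA-seq was done on cells that the methods describe as liver microvascular ECs, selected with beads that carry a PECAM-1 antibody, and that the labels call liver microvesicular cells, from C57BL/6 mice at postnatal day 14. Defining endothelial markers had small signals beside fibroblast and stellate cell genes, as given with the marker values, so these markers do not show a mainly endothelial preparation. The 4 LRP1 eKO libraries carried LRP1 f/f; Cdh5-CreER+/-, in which the Cdh5 promoter drives an inducible Cre recombinase in ECs. The 4 WT libraries came from littermates with LRP1 f/f; Cdh5-CreER-/-, so floxed alleles were shared by both groups and only LRP1 eKO carried CreER. What CreER does and what loss of Lrp1 does cannot be told apart here. Nothing in the labels says whether the libraries of a group came from separate mice, and p-values measure only the spread between these libraries.

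Mitochondria have their own ribosome, which translates the few proteins that mitochondrial DNA encodes, all of them core subunits of the respiratory chain and the ATP synthase. Its rRNAs are transcribed inside the organelle, while all of its proteins are encoded in the nucleus, made in the cytosol and imported. Many of these proteins descend from bacterial ribosomal proteins, and the rest are additions of mitochondria. In ECs, which obtain much of their ATP from glycolysis, mitochondria are known more for signaling and for supplying precursors for growth than for energy.

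Stretches of DNA just upstream of 6 of these genes show how varied their promoters are, in 4 genes that were clearly lower in LRP1 eKO (Mrpl34, Mrpl22, Mrpl17 and Mrps36) and 2 that were not (Mrpl43 and Mrps18a). Each is the 140 bases before the RefSeq start on GRCm38.p6, read 5′ to 3′ on the strand of the gene. Capitals mark letters of the NRF1 motif GCATGCGC or the ETS motif CCGGAAG on either strand. The last 12 bases of Mrpl17, the last 3 of Mrpl22 and the last 18 of Mrps18a lie inside the gene as GENCODE M21 draws it.
Mrpl34, chr8:71464786-71464925, plus strand: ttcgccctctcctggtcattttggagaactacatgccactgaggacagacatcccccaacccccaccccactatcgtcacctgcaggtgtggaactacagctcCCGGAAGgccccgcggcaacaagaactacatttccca
Mrpl22, chr11:58171524-58171663, plus strand: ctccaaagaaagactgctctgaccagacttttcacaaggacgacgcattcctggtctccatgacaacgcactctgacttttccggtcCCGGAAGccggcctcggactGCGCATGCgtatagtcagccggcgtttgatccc
Mrpl17, chr7:105811088-105811227, minus strand: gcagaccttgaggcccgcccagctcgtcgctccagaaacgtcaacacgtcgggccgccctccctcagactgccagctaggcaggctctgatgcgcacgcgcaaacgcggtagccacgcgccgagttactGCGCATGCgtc
Mrps36, chr13:100744660-100744799, minus strand: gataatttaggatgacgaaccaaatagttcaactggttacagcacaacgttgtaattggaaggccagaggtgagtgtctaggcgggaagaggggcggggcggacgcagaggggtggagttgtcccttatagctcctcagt
Mrpl43, chr19:45006443-45006582, minus strand: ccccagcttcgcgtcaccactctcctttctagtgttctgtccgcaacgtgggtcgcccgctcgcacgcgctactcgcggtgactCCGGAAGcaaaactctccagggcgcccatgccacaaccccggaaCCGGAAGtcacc
Mrps18a, chr17:46110864-46111003, plus strand: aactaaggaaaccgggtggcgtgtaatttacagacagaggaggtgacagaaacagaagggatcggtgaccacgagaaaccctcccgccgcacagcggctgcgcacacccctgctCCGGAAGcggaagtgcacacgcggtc

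The targeted gene followed the labels. Lrp1 (chr10:127538161-127621148, minus strand, mm10) had a quantile-normalized signal, in replicate order, of 61.6, 59.0, 56.2 and 85.1 in WT but only 6.01, 2.16, 5.15 and 4.32 in LRP1 eKO. The LRP1 eKO mean was 6.74% of WT, and the log2 fold change was -3.66 ± 0.226 (SE, limma adjusted p = 2.8e-06). All changes are LRP1 eKO against WT on log2(signal + 1), with adjusted p from limma over the 11391 genes tested, and values per library are in the order of replicates 1 to 4. The unit of the signal before quantile normalization is not stated and the depth of the libraries is unknown. Levels are therefore compared between libraries, and between genes only as a rough guide, for cell type markers and the highest signals.

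WT replicate 4 stood apart for this family. It was the highest WT library for 75 of the 76 genes, against 40.6% of all genes tested, and the median ratio to the median of WT replicates 1 to 3 was 1.21. The summed signal of the 76 genes was 2547, 2524, 2593 and 3079 in WT, against 2386, 2411, 2276 and 2362 in LRP1 eKO. WT replicate 4 lay far above the rest, but the other 3 WT libraries were still all above the 4 LRP1 eKO libraries. The exception to its rank was Mrps23. Without WT replicate 4, 39 of the 76 log2 fold changes were over 1.5 times smaller, a count not made for all genes. The values without it are therefore given for counts and medians and for genes whose call or size it moves.

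**Figure D1:**
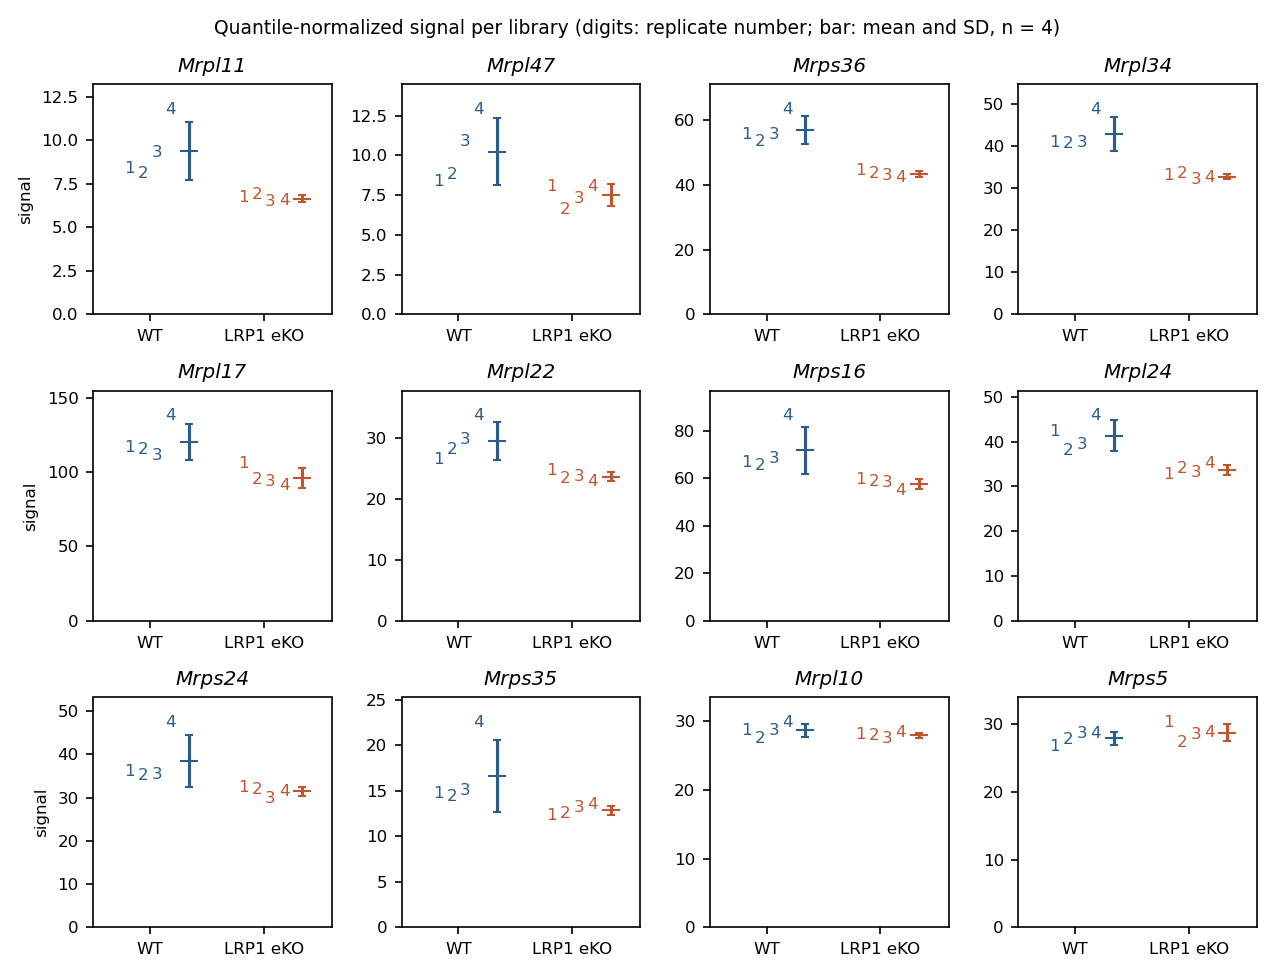
Quantile-normalized signal (vertical axes from 0) of 12 members in WT and LRP1 eKO, with each library drawn as its replicate number and a bar for mean and SD (n = 4 each). WT replicate 4 is the highest WT library in all 12 panels. The groups do not overlap except for Mrpl10 and Mrps5 in the last 2 panels. The 12 members were chosen, most of them from the largest falls, so the panels do not show how often groups overlap in the family. All LRP1 eKO libraries were below all WT libraries in 29 of the 76 genes (38.2%), against 22.5% of all genes tested.

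All 76 genes were expressed: every one passed the filter on low values, none was listed at 0 in any library, and mean signal over the 8 libraries ran from 5.09 to 144. In LRP1 eKO, 27 of the 76 fell at an adjusted p under 0.05, which is 35.5%, where 22.2% of all genes tested fell. None rose, where 19.0% of all genes tested rose, and at an unadjusted p under 0.05 none rose either, where 23.9% of all genes did. The falls were small. Signal was lower by 13.0% to 29.2% in the 27 genes, and 0 of the 76 genes passed both the adjusted p and the 2-fold change that 1.66% of all genes passed. The mean log2 signal was lower in 71 of the 76 genes, against 51.6% of all genes tested. The median log2 fold change was -0.18 over the family and -0.01 over all genes.

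The count of falls depends on single libraries, while the direction of the median does not. Without WT replicate 4, 26 genes fell (34.2%, against 22.9% of all genes), of which 24 were among the 27, and 2 rose (2.63%, against 19.4%). The mean was then lower in 65 genes (85.5%, against 51.3% of all genes), with a median log2 fold change of -0.11. Without LRP1 eKO replicate 3, 14 genes fell, and that share, 18.4%, is close to the 17.8% of all genes. Without LRP1 eKO replicate 4, 17 genes fell (22.4%, against 18.0% of all genes). The median stayed between -0.22 and -0.11 when each library was left out in turn, and 13 of the 27 genes kept an adjusted p under 0.05 in all 8 of these fits. How often other genes that fell kept it was not counted, so the 13 cannot be called particular to the family.

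**Figure D2:**
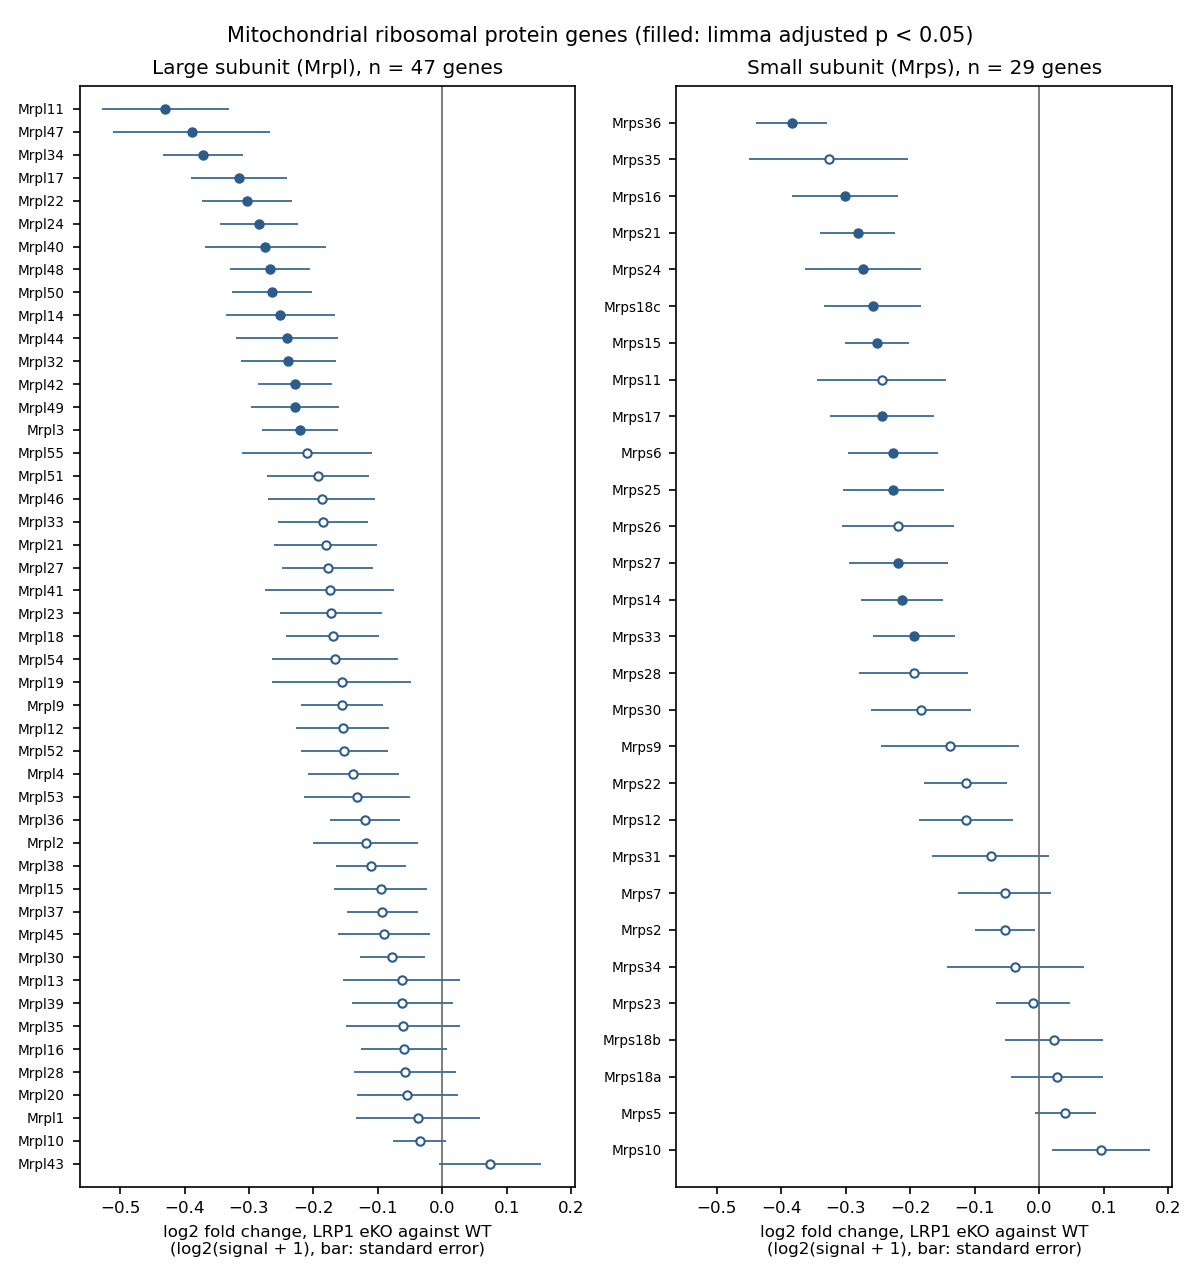
Log2 fold change of each of the 76 genes, LRP1 eKO against WT, with its SE, for the large and the small subunit. Filled symbols have an adjusted p under 0.05. The values run from -0.43 for Mrpl11 to 0.10 for Mrps10, and every filled symbol is below 0.

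Genes of both symbols were lower more often than higher. Among the 47 Mrpl genes, 15 fell (31.9%, against 22.2% of all genes tested). In 46 the mean was lower (97.9%, against 51.6%), and the median log2 fold change was -0.17. Leaving out WT replicate 4 gave 15 falls (31.9%, against 22.9% of all genes), 41 lower means (87.2%, against 51.3%) and a median of -0.09. Among the 29 Mrps genes, Mrps18a, Mrps30 and Mrps36 included, 12 fell (41.4%) and 25 had a lower mean (86.2%), with a median of -0.19. The same step gave 11 falls (37.9%), 24 lower means (82.8%) and a median of -0.13. The difference between the symbols was not tested. Among proteins with bacterial counterparts, 9 of 29 fell in the large subunit (median -0.16, and -0.09 without WT replicate 4). In the small subunit 8 of 15 fell (median -0.23), and without that library 8 fell, 1 rose and the median was -0.16. For these lists too, 22.2% of all genes tested fell, and without that library 22.9% fell and 19.4% rose. In 29 genes, all 4 LRP1 eKO libraries were below all 4 WT libraries, which is 38.2% of the family, where this held for 22.5% of all genes tested. In none were they all above, where this held for 20.0% of all genes. Among the 27 genes that fell, 24 had no overlap, and Mrpl14, Mrps14 and Mrps17 overlapped. The share without overlap among all genes that fell was not taken.

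The largest fall was in Mrpl11 (ENSMUSG00000024902), a protein of the GTPase-associated centre where translation factors bind. Its signal was 8.39, 8.12, 9.27 and 11.8 in WT and 6.72, 6.89, 6.47 and 6.51 in LRP1 eKO. The groups did not overlap and the LRP1 eKO libraries lay close together, and the mean was lower by 29.2%. The log2 fold change was -0.43 ± 0.098 (SE, limma adjusted p = 0.0069), and -0.33 without that library. The other proteins of the stalk moved less. Mrpl10, which anchors the stalk, had 28.6, 27.5, 28.6 and 29.8 in WT and 28.1, 27.8, 27.4 and 28.3 in LRP1 eKO. The groups overlapped, and the log2 difference was -0.04. Mrpl12, the flexible stalk protein that recruits the factors, had 33.7, 37.5, 35.5 and 42.2 in WT and 32.7, 36.1, 31.0 and 33.4 in LRP1 eKO. These groups overlapped too, and the log2 difference was -0.15 (limma adjusted p = 0.11), or -0.09 without WT replicate 4.

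Around the exit of the peptide tunnel, where nascent chains leave toward the inner membrane, 4 of 6 genes fell, with and without WT replicate 4. Of all genes tested, 22.2% fell, and 22.9% without that library. Mrpl22 (ENSMUSG00000020514), whose protein lines the tunnel, had 26.5, 28.0, 29.8 and 33.6 in WT and 24.6, 23.4, 23.7 and 22.8 in LRP1 eKO. All 4 LRP1 eKO libraries lay below the lowest WT library, with a log2 fold change of -0.30 ± 0.069 (SE, limma adjusted p = 0.007). Of its words of 50 bases, 33.4% occur in other genes, above all the processed pseudogene Gm6997, and the handling of such reads is unknown. Mrpl24 (ENSMUSG00000019710), at the rim of the exit, had 42.2, 38.0, 39.4 and 45.8 in WT and 32.6, 34.1, 33.0 and 35.0 in LRP1 eKO, again with no overlap. On the log2 scale the change was -0.28, and 26.3% of its exon length overlaps Rrnad1 on the opposite strand, so reads of the pair cannot be told apart if counting ignored strand. Mrpl47 (ENSMUSG00000037531) was more scattered, with 8.33, 8.83, 10.9 and 12.9 in WT and 8.05, 6.60, 7.28 and 8.05 in LRP1 eKO. The highest LRP1 eKO libraries came close to the lowest WT library, and its log2 fold change of -0.39 kept an adjusted p under 0.05 in 5 of the 8 fits that left out a library. Mrpl44, which has a fold like RNase III, had 13.8, 12.6, 14.3 and 16.9 in WT and 12.0, 11.8, 11.5 and 12.6 in LRP1 eKO. The groups nearly touched, and its log2 fold change of -0.24 (limma adjusted p = 0.034) kept an adjusted p under 0.05 in 2 of the 8 fits without a library. Mrpl23 had 43.0, 39.6, 42.1 and 52.1 in WT and 40.0, 40.0, 36.0 and 39.7 in LRP1 eKO. Mrpl45, a contact to the inner membrane, had 12.4, 11.1, 12.5 and 14.1 in WT and 11.7, 11.6, 11.0 and 12.3 in LRP1 eKO. Both overlapped between the groups and missed the threshold, with log2 fold changes of -0.17 and -0.09, or -0.09 and -0.04 without WT replicate 4.

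In the central protuberance, the crown of the large subunit, 2 of 6 genes fell, where 22.2% of all genes tested did. Mrpl48 had 52.5, 52.6, 51.7 and 62.4 in WT and 45.9, 45.4, 45.8 and 43.7 in LRP1 eKO. Within each group the values were nearly equal apart from WT replicate 4, and the groups were well apart. Its log2 fold change was -0.27 ± 0.062 (SE, limma adjusted p = 0.0072). Mrpl40 had 28.3, 26.0, 28.8 and 36.2 in WT and 25.3, 25.8, 21.9 and 24.4 in LRP1 eKO. The groups all but touched, and it fell by 0.27 on the log2 scale (limma adjusted p = 0.04), or by 0.18 without WT replicate 4. This call remained in only 3 of the 8 fits without a library. Mrpl27, which reaches toward the site of peptide bond formation, had 38.5, 42.3, 40.2 and 48.9 in WT and 36.3, 39.1, 35.9 and 38.0 in LRP1 eKO. Mrpl18 had 29.4, 26.4, 28.6 and 32.9 in WT and 25.04, 26.4, 24.1 and 28.2 in LRP1 eKO. In both, 1 LRP1 eKO library lay among the WT libraries. Mrpl38 had 28.4, 27.5, 26.4 and 29.0 in WT and 24.5, 27.7, 26.4 and 24.4 in LRP1 eKO. Mrpl46 had 14.2, 11.8, 12.8 and 16.0 in WT and 11.5, 12.5, 11.6 and 11.7 in LRP1 eKO. These 4 genes had log2 fold changes between -0.19 and -0.11 with adjusted p of 0.069 to 0.13 by limma, and between -0.11 and -0.09 without WT replicate 4.

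Mrpl34 and Mrpl17 are large subunit proteins with bacterial counterparts. Mrpl34 (ENSMUSG00000034880) had 40.9, 40.6, 40.8 and 48.7 in WT and 33.0, 33.5, 32.0 and 32.5 in LRP1 eKO. WT replicates 1 to 3 were nearly identical, and so were the LRP1 eKO libraries, 23.5% lower on average. On the log2 scale the change was -0.37 ± 0.062 (SE, limma adjusted p = 0.0013). Mrpl17 (ENSMUSG00000030879) had 117, 115, 111 and 138 in WT and 106, 94.7, 93.4 and 90.7 in LRP1 eKO. LRP1 eKO replicate 1 sat nearer to WT than the other LRP1 eKO libraries did, yet the groups did not overlap. On the log2 scale the change was -0.32 ± 0.074 (SE, limma adjusted p = 0.008).

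The smallest adjusted p of the family was that of Mrps36. Mrps36 (ENSMUSG00000061474) was first listed as a ribosomal protein and is now known as a subunit of the oxoglutarate dehydrogenase complex, a step of the citric acid cycle, so the symbol and not the ribosome puts it here. Its signal was 55.5, 53.5, 55.6 and 63.4 in WT and 44.5, 43.5, 43.0 and 42.4 in LRP1 eKO. The gap between the groups was wider than the spread within LRP1 eKO. The log2 fold change was -0.38 ± 0.055 (SE, limma adjusted p = 0.00057). A processed pseudogene, Mrps36-ps1, shares 33.7% of its 50-base words, and the handling of reads that match both is unknown. Mrps16 (ENSMUSG00000049960), a protein of the small subunit body, had 66.9, 65.5, 68.4 and 86.4 in WT and 59.4, 58.5, 58.3 and 54.8 in LRP1 eKO. WT replicate 4 was far above the other WT libraries, which were themselves all above LRP1 eKO. The log2 fold change was -0.30, and -0.21 without WT replicate 4.

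At the decoding centre and the mRNA entry, 1 of 4 genes fell, where 22.2% of all genes tested did, and 2 of 4 fell without WT replicate 4. Mrps24, at the mRNA entry, had 36.0, 35.2, 35.3 and 47.4 in WT and 32.4, 31.9, 29.9 and 31.5 in LRP1 eKO, with no overlap. It fell by 0.27 on the log2 scale (limma adjusted p = 0.034). The change was -0.17 without WT replicate 4. Mrps35, a protein found in mitochondrial but not bacterial ribosomes, had 14.7, 14.4, 15.0 and 22.5 in WT and 12.3, 12.5, 13.1 and 13.5 in LRP1 eKO. The groups did not overlap, but WT replicate 4 alone widened the WT spread, and the log2 fold change of -0.33 missed the threshold (limma adjusted p = 0.059). Without WT replicate 4 it was -0.18 with a limma adjusted p of 0.011. Mrps12, whose bacterial counterpart helps decode the codon, had 31.1, 28.3, 33.0 and 36.4 in WT and 28.2, 30.7, 28.7 and 30.8 in LRP1 eKO. Mrps5 had 26.6, 27.6, 28.5 and 28.5 in WT and 30.2, 27.2, 28.4 and 28.7 in LRP1 eKO. Both overlapped and missed the threshold, with log2 fold changes of -0.11 and 0.04, or -0.05 and 0.05 without WT replicate 4.

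The 3 MRPS18 paralogues, related proteins of which MRPS18A sits in the large subunit, differed in their values. Mrps18c had 41.1, 38.7, 40.6 and 50.4 in WT and 35.5, 36.8, 34.8 and 34.4 in LRP1 eKO, with no overlap. It fell with a log2 fold change of -0.26 ± 0.075 (SE, limma adjusted p = 0.021). Mrps18a had 26.7, 25.02, 26.1 and 31.8 in WT and 27.9, 29.3, 26.9 and 27.1 in LRP1 eKO. Its groups overlapped only because of WT replicate 4, and the log2 fold change was 0.03, or 0.10 without that library (limma adjusted p = 0.091). Mrps18b had 37.0, 33.3, 36.0 and 42.8 in WT and 35.2, 40.6, 36.9 and 38.6 in LRP1 eKO, a log2 difference of 0.02, or 0.09 without that library. A test between the paralogues was not made. Mrps23, a protein specific to mitochondrial ribosomes, had the smallest change of the family, with 50.2, 44.3, 45.7 and 47.1 in WT and 46.8, 50.2, 43.3 and 45.9 in LRP1 eKO.

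Of the 3 genes with the highest signal, 1 fell, where 22.2% of all genes tested did. Mrps21 had 115, 117, 120 and 135 in WT and 104, 102, 94.9 and 98.7 in LRP1 eKO, and fell by 0.28 on the log2 scale (limma adjusted p = 0.004). Mrpl33 had 147, 139, 141 and 173 in WT and 128, 139, 127 and 131 in LRP1 eKO. LRP1 eKO replicate 2 nearly touched the lowest WT library, and the log2 fold change was -0.19 (limma adjusted p = 0.056), or -0.11 without WT replicate 4. Mrpl52 had 144 in each of WT replicates 1 to 3 and 175 in WT replicate 4, and 142, 134, 134 and 134 in LRP1 eKO. Its groups did not overlap, but its log2 fold change of -0.15 missed the threshold with and without WT replicate 4.

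Leaving out WT replicate 4 moved 7 genes across the threshold. Mrpl14, Mrps25 and Mrps33 lost their call and Mrps35 and Mrpl33 gained one. Mrpl43 and Mrps10 crossed on the other side and were picked out after their values were seen. Mrpl43 had 22.1, 23.5, 25.1 and 29.6 in WT and 25.4, 26.4, 26.1 and 27.2 in LRP1 eKO. Every LRP1 eKO library was above WT replicates 1 to 3 and below WT replicate 4. The change was 0.07 on the log2 scale, and 0.15 without that library (limma adjusted p = 0.033), and 33.4% of its exon length overlaps Twnk on the opposite strand. Mrps10 had 23.2, 22.3, 23.3 and 28.4 in WT and 24.9, 27.3, 24.6 and 27.1 in LRP1 eKO, in the same arrangement. Its log2 fold change was 0.10, and 0.17 without that library (limma adjusted p = 0.021).

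**Figure D3:**
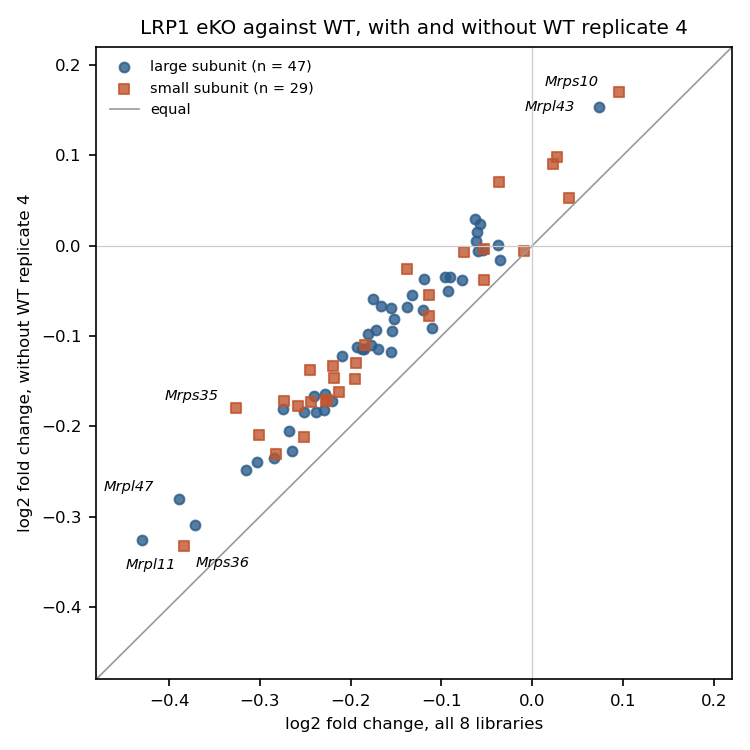
Log2 fold change of each of the 76 genes with all 8 libraries (horizontal axis) and without WT replicate 4 (vertical axis). Nearly all points lie above the line of equal values, since the WT mean drops without that library, and Mrpl43 and Mrps10 are at the upper right with values of 0.15 and 0.17 on the vertical axis.

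Marker values of the cell preparations differed between the genotypes, some lower in LRP1 eKO like the family and others higher. Of all genes tested, 22.2% were lower and 19.0% higher. Defining endothelial markers had small signals: Pecam1 was 2.09 ± 0.416 (mean ± SD over 4 libraries, as in what follows) in WT and 3.02 ± 0.911 in LRP1 eKO, and Stab2 of sinusoidal ECs was 0.459 to 0.538 in WT and 0.329 to 2.18 in LRP1 eKO. Of 8 endothelial markers tested, 3 were higher in LRP1 eKO, with a median log2 fold change of 0.30. The summed signal of the list was 49.4 to 51.9 in WT and 58.6 to 82.2 in LRP1 eKO. Of 4 sinusoidal markers tested, 1 was higher and none lower, with a median log2 fold change of 0.89. The fibroblast and stellate cell gene Dcn was 554 to 581 in WT and 441 to 486 in LRP1 eKO, and the list of such markers summed to 1966 to 2284 in WT and 1741 to 2194 in LRP1 eKO, with 1 of 6 tested markers lower. Without WT replicate 4, 2 of these markers were lower and 1 was higher. Of 8 hepatocyte markers tested, all 8 were lower, with a median log2 fold change of -1.67 and sums, mostly Trf, of 1477 to 1534 in WT and 607 to 892 in LRP1 eKO. Albumin (Alb) was 24.7, 22.1, 20.6 and 15.7 in WT, lowest in WT replicate 4, and 6.15 ± 0.505 in LRP1 eKO. Of 7 skeletal muscle markers tested, 6 were lower, with a median log2 fold change of -1.79. The list summed to 74.7 to 109 in WT and 50.3 to 52.7 in LRP1 eKO. Without WT replicate 4, 6 of these muscle markers were lower and 1 was higher. Des is on both this list and that of fibroblast and stellate cell genes, so the counts of these lists are not separate. Myl1, a muscle myosin light chain, was 11.5, 11.3, 12.0 and 20.1 in WT, highest in the library that is also highest for the ribosomal proteins, and 1.90 ± 0.190 in LRP1 eKO. Macrophage markers summed to 113 to 222 in WT and 52.8 to 734 in LRP1 eKO, with 1 of 9 tested markers higher, and 0 without WT replicate 4. Their median log2 fold change was 1.14, or 1.01 without WT replicate 4, and with all 8 libraries 0 of the 9 had a lower mean log2 signal. Lyz2 was likewise lowest among WT in WT replicate 4. Of the lymphocyte markers, none was tested, and Cd79b and Cd3g were among those at 0 in every library, and Ly6g of neutrophils was at 0 in every library. In neutrophils 1 marker was tested and was higher. In erythroid cells 1 was tested and was lower, a call lost without WT replicate 4. All 15 cell cycle genes on the list were lower, with a median log2 fold change of -0.82. The part of these differences in the ribosomal protein values was not tested, and in bulk RNA fewer cells of a type and less RNA per cell cannot be told apart.

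Other genes of mitochondrial translation did not all move alike. As background for the counts, 22.2% of all genes tested fell and 19.0% rose. Without WT replicate 4 these shares were 22.9% and 19.4%. Of the 7 mitoribosomal proteins that carry other symbols, 4 fell and none rose, and the median log2 fold change was -0.23. Among them Dap3, a GTP-binding protein of the small subunit, fell from 44.7 ± 3.62 to 37.4 ± 1.53 (log2 fold change -0.25, limma adjusted p = 0.0092). Aurkaip1 and Chchd1, 2 further small subunit proteins, fell with log2 fold changes of -0.23 and -0.33, or -0.17 and -0.21 without WT replicate 4. Without WT replicate 4, 3 of the 7 fell and the median was -0.16. Proteins that assemble the mitoribosome or modify its rRNA showed 4 falls and 1 rise among 22 tested genes of 28 listed, with a median of -0.14. Without WT replicate 4 there were 3 falls and 1 rise, with a median of -0.10. The rise was in Mrm1, an rRNA 2′-O-methyltransferase, from 4.33 ± 0.749 to 7.12 ± 1.06 (log2 fold change 0.61, limma adjusted p = 0.0027). Ftsj2, another such methyltransferase, and the GTPase gene Gtpbp10 fell, with log2 fold changes of -0.35 and -0.19.

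The same shares of all genes tested, 22.2% that fell and 19.0% that rose, are the background for the lists that follow. Of 11 mitochondrial initiation, elongation, release and recycling factors, 1 fell and none rose, with a median log2 fold change of -0.02. That gene was Mtrf1, a member of the release factor family (-0.32, limma adjusted p = 0.022). Of 17 mitochondrial aminoacyl-tRNA synthetases, which charge tRNAs with amino acids, 3 fell and none rose, with a median of -0.13, and 2 fell without WT replicate 4, with a median of -0.10. Fars2, for phenylalanine, had the smallest adjusted p, with a log2 fold change of -0.33, and Aars2, for alanine, also fell, with -0.20, and lost its call without that library (limma adjusted p = 0.067). Among 10 genes that maintain and express mitochondrial DNA, 3 fell and 1 rose, with a median of -0.20, and without WT replicate 4 with a median of -0.14. The transcription elongation factor Tefm and the RNA-binding Slirp fell, with log2 fold changes of -0.22 and -0.18. The DNA polymerase gene Polg rose, with a log2 fold change of 0.17.

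The transcripts of mitochondrial DNA, which this ribosome reads, had values on the other side. Of the 13 genes, 7 rose and none fell, with a median log2 fold change of 0.33. Without WT replicate 4, 6 rose and the median was 0.25. mt-Nd5, a subunit of respiratory complex I, was 779, 723, 534 and 543 in WT and 804, 980, 964 and 903 in LRP1 eKO. The lowest LRP1 eKO library was only just above the highest WT library, and the log2 fold change was 0.52 (limma adjusted p = 0.0091). mt-Nd4l of the same complex rose by 0.72 on the log2 scale and mt-Cytb of complex III by 0.25. These genes are among the highest of the table, where quantile normalization sets the value by the place in the library: mt-Co1 took the second place in all 4 WT libraries and in LRP1 eKO replicate 1 and the first place in the other 3 LRP1 eKO libraries, and its WT values were identical. Its log2 fold change of 0.25 is that step averaged over the 4 LRP1 eKO libraries.

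**Figure D4:**
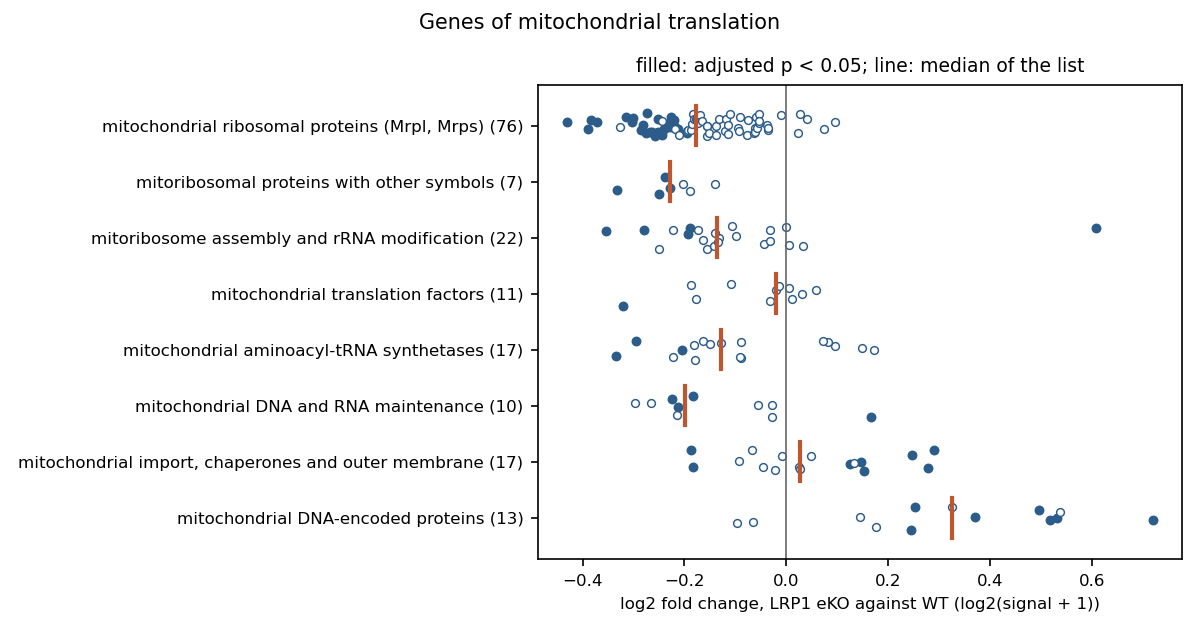
Log2 fold change of each gene, LRP1 eKO against WT, for the 76 mitochondrial ribosomal protein genes and 7 lists of related genes, with the number tested in parentheses. Filled points have an adjusted p under 0.05 and the line is the median of the list. Medians are -0.18 for the ribosomal protein genes, -0.23 for mitoribosomal proteins with other symbols and 0.33 for the genes of mitochondrial DNA.

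Genes for other parts of the organelle were mixed. Of 17 genes for import, chaperones and the outer membrane, 6 rose and 2 fell, with a median log2 fold change of 0.03, or 0.08 without WT replicate 4. The matrix chaperones Hspa9 and Hspd1 rose with log2 fold changes of 0.29 and 0.25, and the outer membrane channel gene Vdac2 with 0.28. Of 9 regulators of mitochondrial biogenesis, 7 could be tested, and 2 rose and 1 fell. Myc, a transcription factor that drives ribosome production among other growth programs, rose from 15.2 ± 0.852 to 23.7 ± 1.03 (log2 fold change 0.61, limma adjusted p = 2.6e-05), and the coactivator gene Pprc1 with 0.20. Nrf1, the factor whose motif is searched for in the promoters, fell from 10.1 ± 0.776 to 8.53 ± 0.539 (log2 fold change -0.22, limma adjusted p = 0.025).

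The promoters of the family held more of certain short motifs than promoters at large did. Windows of 300 bases, from 250 before to 50 after the RefSeq start, were found for 67 of the 76 genes and for 15142 genes of the table, and motifs were searched on both strands. The letters CCGGAAG, bound by ETS factors such as GABPA, were in 35.8% of the family and 13.1% of the table. Those of YY1, AAGATGGC, were in 17.9% and 3.65%, and those of NRF1, GCATGCGC, in 11.9% and 4.09%. CACGTG, the E-box of MYC and related factors, was in 7.46% and 9.34%, and TATAAA of the TATA box in 7.46% and 14.4%. CCGGAAG, AAGATGGC and GCATGCGC do not contain one another, and 36 of the 67 windows, 53.7%, held at least one of these 3 motifs, against 19.0% of the table.

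For the first 3 of these motifs, the shares were close between genes that fell and genes that did not. CCGGAAG was in 37.0% of the 27 windows of genes that fell and 35.0% of the 40 others, AAGATGGC in 18.5% and 17.5%, and GCATGCGC in 11.1% and 12.5%. CACGTG was in 1 of the 27 and 4 of the 40, and TATAAA in 3 and 2. At least one of these 3 was in 14 of the 27 and in 22 of the 40. Of the stretches printed above, Mrpl22 holds both CCGGAAG and GCATGCGC, Mrpl34 and Mrps18a hold CCGGAAG once and Mrpl43 holds it in 2 copies. Mrpl17 holds GCATGCGC, and Mrps36 holds none of the 5 motifs in its whole window. A match says only that the letters are there.

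**Figure D5:**
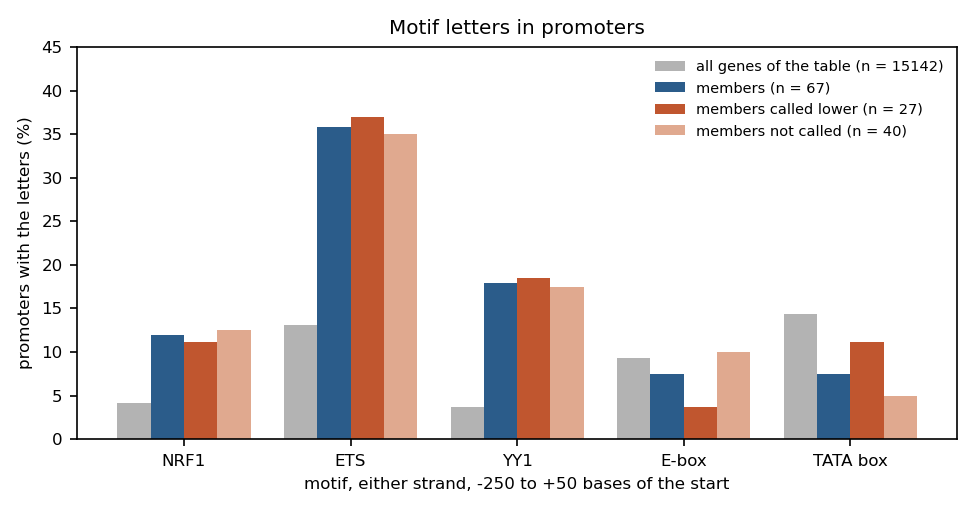
Percentage of promoter windows of 300 bases that hold each of 5 motifs on either strand, for all genes of the table, the 67 mitochondrial ribosomal protein genes with a window, and those that fell or did not. ETS letters are in 35.8% of the family and 13.1% of the table, and the bars of the genes that fell and did not are close for NRF1, ETS and YY1.

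The genes are scattered over the genome. In GENCODE M21 (GRCm38), 75 of the 76 were found, on 17 chromosomes, with at most 10 on one, chromosome 11. One pair lies within 50000 bases: Mrpl46 (chr7:78775236-78783531, minus strand) and Mrps11 (chr7:78783119-78792989, plus strand), whose starts overlap. A protein-coding gene starts head to head within 1000 bases of 17 of them, 22.7%, against 6.79% of 21938 nuclear protein-coding genes. Mrps12 with Sars2, the mitochondrial seryl-tRNA synthetase, is one such pair. For 36 genes no word of 50 bases is found in another gene, and for 2, Mrpl53 and Mrpl23, over 50% are, so their values are uncertain. The share is 33.7% for Mrps36, 33.4% for Mrpl22 and 32.4% for Mrpl27. Exons of 23 genes overlap another protein-coding gene, by over 20% of their length in 6, and whether counting used strand is not stated.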

How the data were processed

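mRNA-seq of 4 WT and 4 LRP1 eKO libraries from cells prepared as liver ECs was analysed, grouped by the genotype in the labels. The authors deposited 1 table of quantile-normalized signal that covers 22520 protein-coding genes and gives each library a column, in which columns sum to 484445 to 485947. The submitters' processing notes name TopHat2, Cufflinks and mm10. The methods of the paper name trimGalore, STAR, featureCounts and edgeR and do not describe this table, so the unit before normalization and any correction for gene length are not stated. Quantile normalization gives all libraries nearly one distribution, which removes a global shift and fixes the highest values by place. Since the depth is not known, counting error has no interval here and a count model could not be used. Precision rests on how far the 4 libraries of each group lie apart.

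The fit of limma 3.58.1 (R 4.3.3) on log2(signal + 1) had a mean-variance trend and no term besides genotype. It covered 11391 genes, those that reached a signal of 1 in 4 or more of the 8 libraries. Benjamini-Hochberg adjustment ran over all of them, with a threshold of 0.05 and, as a second rule, a 2-fold change. For each gene the group means were also set against all exact permutations of the labels (two-sided), whose smallest possible p is 0.029. In data simulated for this comparison with 200 changed genes among 11391, the fit recovered 35 of 200 at a log2 change of 0.25, 179 at 0.5 and 196 at 1. Far more genes were called in the real data, which makes the adjusted threshold of the simulation stricter. The share of falls missed here is therefore not known from it. The members and lists were chosen with earlier results of these data known, and no list was tested as a whole. Values per library are given for the 8 largest falls, the 3 genes with the highest signal, the 3 with the smallest change and the members of 5 role lists, and in other lists the 3 genes with the smallest adjusted p are named, apart from items that are not reported here. For the cell cycle list and the cell type marker lists, counts and chosen defining markers are given. Alternatives were the pseudocount (0.1 and 5), the filter, the trend, robust moderation, array weights, centring by a trimmed mean, the replicate number as a block and leaving out libraries. Promoters are RefSeq windows on GRCm38.p6, and positions and 50-base words come from GENCODE M21. Protein sequences were not analysed here.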

Additional observations from a re-analysis of the deposited data

Results flagged for a closer look

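Over Lrp1, the 32 named members and the mean of each subunit, 70 groups of 4 libraries were examined for a library set apart from the other 3, by the gap to its nearest neighbour divided by the whole range. This was so in 10 groups. Groups not picked by their values would give about 1 in 20, or 3.5. Part of the named members were picked by their values, Mrpl43 and Mrps10 because leaving out WT replicate 4 moved their call. The count of 10 therefore cannot be held against 3.5. In 7 of the 10 it was WT replicate 4 that was highest: the share was 0.968 for Mrpl34, 0.862 for Mrps16, 0.996 for Mrpl52, 0.913 for Mrpl48, 0.934 for Mrps24, 0.921 for Mrps35 and 0.831 for Mrps10. Mrps10, Mrps35, Mrps24, Mrps16, Mrpl48, Mrpl34 and Mrpl52 share that library, so these are not separate events. In LRP1 eKO, replicate 1 was set apart as the highest for Mrpl52 (0.975), replicate 3 as the lowest for Mrpl23 (0.929) and replicate 2 as the highest for Mrpl46 (0.856).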

How the results depend on the processing

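The count of genes that fell, 27, was the same with a pseudocount of 0.1 or 5, a mean signal of at least 5 as the filter, no trend, robust moderation, trimmed mean centring or the replicate block. It was 18 without a filter, where more genes are tested, and 35 with array weights. Leaving out each library in turn gave 14 to 30 falls and 0 to 2 rises. The share of all genes that fell was taken only with all 8 libraries and without WT replicate 4, LRP1 eKO replicate 3 or LRP1 eKO replicate 4. Counts of falls or rises in the other settings therefore have no background and say nothing particular about the family. The count of rises, 0, became 2 with array weights, 2 without WT replicate 4, 2 without WT replicate 4 and LRP1 eKO replicate 2, and 2 without WT replicate 4 with trimmed mean centring, the last chosen after seeing the data. No gene passed the 2-fold rule in any of these settings. The replicate numbers do not pair the libraries: same-numbered libraries had correlations of their deviations from -0.13 to 0.18, and 0 of 8 correlated best with its own number. With the replicate block 27 genes fell, 26 of them the same. Across the fits without one library, the log2 fold change changed sign for 10 of the 76 genes, a count not made for all genes. Among the named ones, leaving out each library in turn gave -0.045 to 0.024 for Mrps23 (above 0 without WT replicate 1 or LRP1 eKO replicate 3), -0.027 to 0.090 for Mrps18b (below 0 without WT replicate 2 or LRP1 eKO replicate 2) and -0.012 to 0.098 for Mrps18a (below 0 without WT replicate 2). Depth is unknown, so what it limits cannot be given.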
